A study of Mus musculus with 6 samples.

Results

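The 54 genes described here encode the machinery of mitosis: the kinases and cyclins that start it, the condensins that fold chromosomes, the kinetochore, the spindle and its motors, the anaphase trigger and the cytokinetic ring. They were taken by symbol from a list grouped by function, which was drawn up with earlier results of these data known. All 54 were found among the 56691 gene identifiers of the deposited count table, and all 54 passed the filter on low counts that kept 16414 genes. Expression was compared between 3 libraries of circulating tumour micro-emboli (CTM) and 3 libraries of the mouse mammary carcinoma line 4T1 (the control). CTM are clusters of tumour cells in blood, captured here with the Cluster-chip device from mice with breast cancer metastatic to the lung. The labels name no treatment, strain, age or number of mice for CTM, and for 4T1 a low adherence culture in serum-containing medium. RNA of both groups was prepared with a kit for very small amounts of input. Nothing in the labels says that replicates are separate mice or cultures, so each p-value reflects only library-to-library spread, some or all of it possibly technical. Growth in mice or in dishes, passage through blood and capture differed together between the groups and cannot be told apart.

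Mitotic genes are known as a tightly timed group. Their transcripts are low in resting and G1 cells and rise in G2, when the B-MYB and FOXM1 transcription factors act with the MuvB complex at promoters that carry a cell cycle genes homology region (CHR). CCAAT boxes bound by NF-Y are common beside it. At the end of mitosis the anaphase-promoting complex (APC/C) marks several of the proteins for destruction. In a bulk library fewer cells in mitosis and less mitotic RNA in each cell cannot be told apart.

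Promoter sequence was available for 45 of the 54 genes, and 6 are shown because they hold the letters on which this group of co-regulated genes is known to depend, or lack them. Each is the 250 bases before the transcription start, read 5′ to 3′ on the gene's strand, from RefSeq on build GRCm38.p6. Capitals mark CHR letters (TTTGAA, its reverse complement TTCAAA, or the palindrome TTCGAA) and CCAAT boxes (CCAAT or its reverse complement ATTGG), and both strands were searched. In Ube2c a CCAAT and an ATTGG overlap. In Nuf2 neither motif was found, which says only that these letters are not in this window. Entries were matched by gene symbol, and for each gene only the first listed start was used.
Cdk1 (chr10:69352913-69353162, minus strand): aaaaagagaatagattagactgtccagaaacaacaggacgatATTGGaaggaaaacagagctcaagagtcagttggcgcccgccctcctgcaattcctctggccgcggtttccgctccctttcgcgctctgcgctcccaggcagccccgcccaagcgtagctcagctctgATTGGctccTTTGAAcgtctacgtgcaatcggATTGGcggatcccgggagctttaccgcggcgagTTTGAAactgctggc
Cdc20 (chr4:118437344-118437593, minus strand): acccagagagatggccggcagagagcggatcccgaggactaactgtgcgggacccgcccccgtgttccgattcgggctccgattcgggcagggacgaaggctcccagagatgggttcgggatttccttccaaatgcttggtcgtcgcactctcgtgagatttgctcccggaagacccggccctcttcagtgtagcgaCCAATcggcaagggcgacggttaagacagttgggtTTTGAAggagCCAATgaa
Kif22 (chr7:127042421-127042670, minus strand): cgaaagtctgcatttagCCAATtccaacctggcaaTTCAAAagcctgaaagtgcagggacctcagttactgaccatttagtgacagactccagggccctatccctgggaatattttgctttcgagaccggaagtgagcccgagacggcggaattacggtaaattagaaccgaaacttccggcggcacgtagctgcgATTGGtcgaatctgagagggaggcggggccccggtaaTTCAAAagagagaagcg
Top2a (chr11:99024190-99024439, minus strand): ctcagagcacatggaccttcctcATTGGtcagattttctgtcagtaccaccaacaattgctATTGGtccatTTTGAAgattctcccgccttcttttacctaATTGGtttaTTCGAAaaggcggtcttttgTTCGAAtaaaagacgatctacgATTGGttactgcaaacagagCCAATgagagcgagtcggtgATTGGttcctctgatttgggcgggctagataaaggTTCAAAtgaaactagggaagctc
Ube2c (chr2:164769679-164769928, plus strand): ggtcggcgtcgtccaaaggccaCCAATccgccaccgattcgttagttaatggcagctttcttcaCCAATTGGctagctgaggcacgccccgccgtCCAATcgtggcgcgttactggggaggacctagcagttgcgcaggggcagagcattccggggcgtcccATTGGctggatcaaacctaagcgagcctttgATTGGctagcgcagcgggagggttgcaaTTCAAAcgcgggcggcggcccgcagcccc
Nuf2 (chr1:169531465-169531714, minus strand): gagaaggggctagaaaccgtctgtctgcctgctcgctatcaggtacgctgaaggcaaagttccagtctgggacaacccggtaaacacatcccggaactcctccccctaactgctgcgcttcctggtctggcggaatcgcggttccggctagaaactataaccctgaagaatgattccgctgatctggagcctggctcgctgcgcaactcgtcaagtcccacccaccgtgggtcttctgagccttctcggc

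The CHR letters were found in 34 of the 45 promoters, 75.6%, over a window from 250 bases before to 50 after the start. Over all 10816 tested genes with a promoter entry the share was 14.1%. Over all 32851 promoter entries, which can hold several starts of a gene, it was 19.2%. CCAAT boxes were found in 33 of the 45, 73.3%, against 39.2% of tested genes and 37.4% of all entries. Both motifs occurred together in 29 promoters, 64.4%, against 6.08% of tested genes. Most of the 34 promoters with a CHR match had one near the start: 32 had a match from 100 bases before to 50 after it. Of the 1525 tested genes with a CHR match, 582 had one there. As shares of all 45 promoters and of all tested genes with an entry, with or without a match, these were 71.1% and 5.38%. A match is a description of the letters and not a bound site, and the genes were listed by function with this regulation known.

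**Figure D1:**
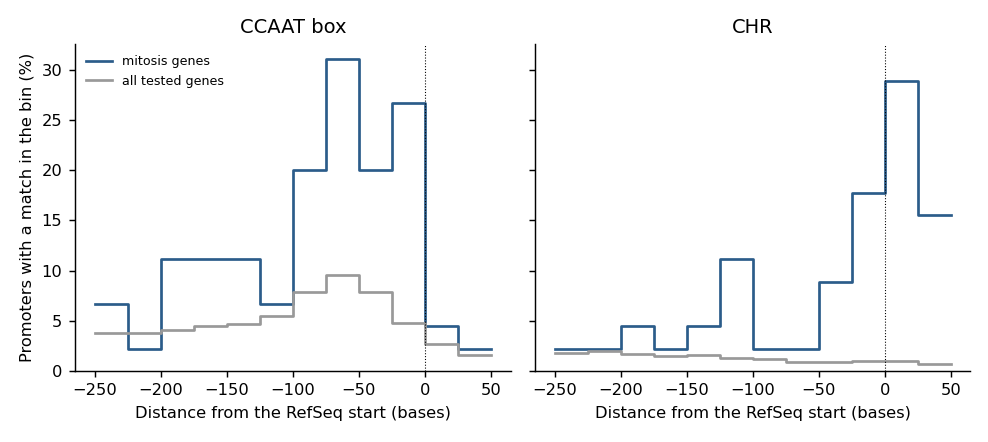
Share of promoters with a CCAAT box (left) or a CHR match (right) in each bin of 25 bases, by distance of the match from the RefSeq start, for 45 mitosis genes (blue) and 10816 tested genes (grey). CHR matches of the mitosis genes gather just after the start, where the first bin holds 28.9% of promoters against 0.98%, and CCAAT boxes lie before it.

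Transcript levels of 53 of the 54 genes were lower in CTM with an adjusted p under 0.05 in edgeR's quasi-likelihood test. Over all tested genes 13.7% passed in that direction. None passed in the other direction (edgeR, with none at an unadjusted p below 0.05, and none in DESeq2 or limma voom), against 14.2% of all tested genes. The fall was at least 2-fold in 41 of the 54, where 5.07% of tested genes fell as far. The median log2 fold change was -1.24 over the 54 genes and -0.02 over all tested genes. In all 54, the 3 CTM values lay below the 3 4T1 values, a pattern seen in 23.5% of tested genes. Smc4 alone did not pass.

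The 54 genes together took up 0.703%, 1.03% and 1.05% of the normalised library in 4T1 replicates 1, 2 and 3. In CTM they took up 0.446%, 0.384% and 0.388%. The CTM libraries were thus all lower, and 4T1 replicate 1 lay between the other 4T1 libraries and CTM.

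**Figure D2:**
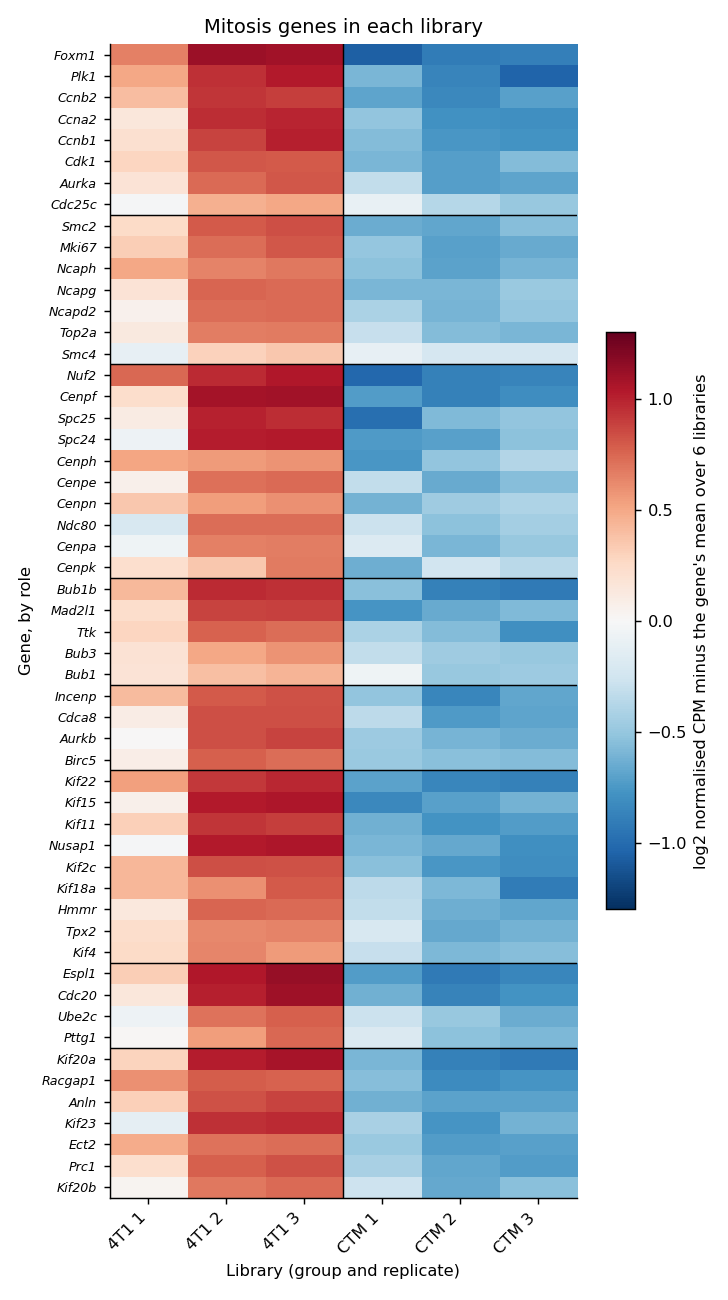
Level of each of the 54 genes in each library, as log2 normalised CPM minus the gene's mean over 6 libraries, with genes ordered by role. All 3 CTM columns are lower than all 3 4T1 columns in every row, and replicate 1 is the lowest 4T1 column.

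All 8 genes that drive entry into mitosis fell, and their median, -1.44 on the log2 scale, was the lowest of the 8 role sets. Foxm1 encodes the transcription factor that activates G2 and M phase genes. Its level, in normalised CPM (counts scaled by the TMM-corrected library total), was 155, 213 and 209 in the 4T1 libraries and 47.2, 52.4 and 53.0 in the CTM libraries. Its level was 3.78-fold lower in CTM, the largest fall among the 54 genes (log2 fold change -1.92 ± 0.14 SE, edgeR adjusted p = 0.000551). Ccnb2, a B-type cyclin that activates CDK1, stood at 110.0, 159 and 156 CPM across the 4T1 libraries and at 51.7, 46.7 and 51.3 across the CTM libraries. The groups were well apart, with a log2 fold change of -1.50 ± 0.15 (SE, edgeR adjusted p = 0.00121).

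The other B-type cyclin gene of the 54, Ccnb1, was at 96.2, 153 and 167 CPM in 4T1 against 56.3, 49.2 and 48.5 in CTM. This is a log2 fold change of -1.43 ± 0.21 (SE, edgeR adjusted p = 0.00338), with the lowest 4T1 value in replicate 1. Cdk1, the kinase itself, had 97.3, 140.2 and 139 CPM in 4T1 replicates 1 to 3 and 53.1, 48.9 and 54.2 in the CTM replicates (log2 fold change -1.27 ± 0.15 SE, edgeR adjusted p = 0.00191). Again 4T1 replicate 1 was the lowest of its group and no values overlapped. Ccna2, the cyclin of S and G2 phase, Plk1, the polo kinase, and Aurka, the centrosomal Aurora kinase, passed with log2 fold changes of -1.44, -1.66 and -1.16. Cdc25c, the phosphatase that removes the inhibitory phosphates from CDK1, moved least of the 8. It stood at 34.0, 47.5 and 48.7 CPM across the 4T1 libraries and at 32.2, 26.5 and 24.5 across the CTM libraries, so that replicate 1 of each group nearly met (log2 fold change -0.64 ± 0.18 SE, edgeR adjusted p = 0.033). The Cdc25c call was lost without 4T1 replicate 2 or 3 or without CTM replicate 2 or 3, with edgeR adjusted p up to 0.123.

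**Figure D3:**
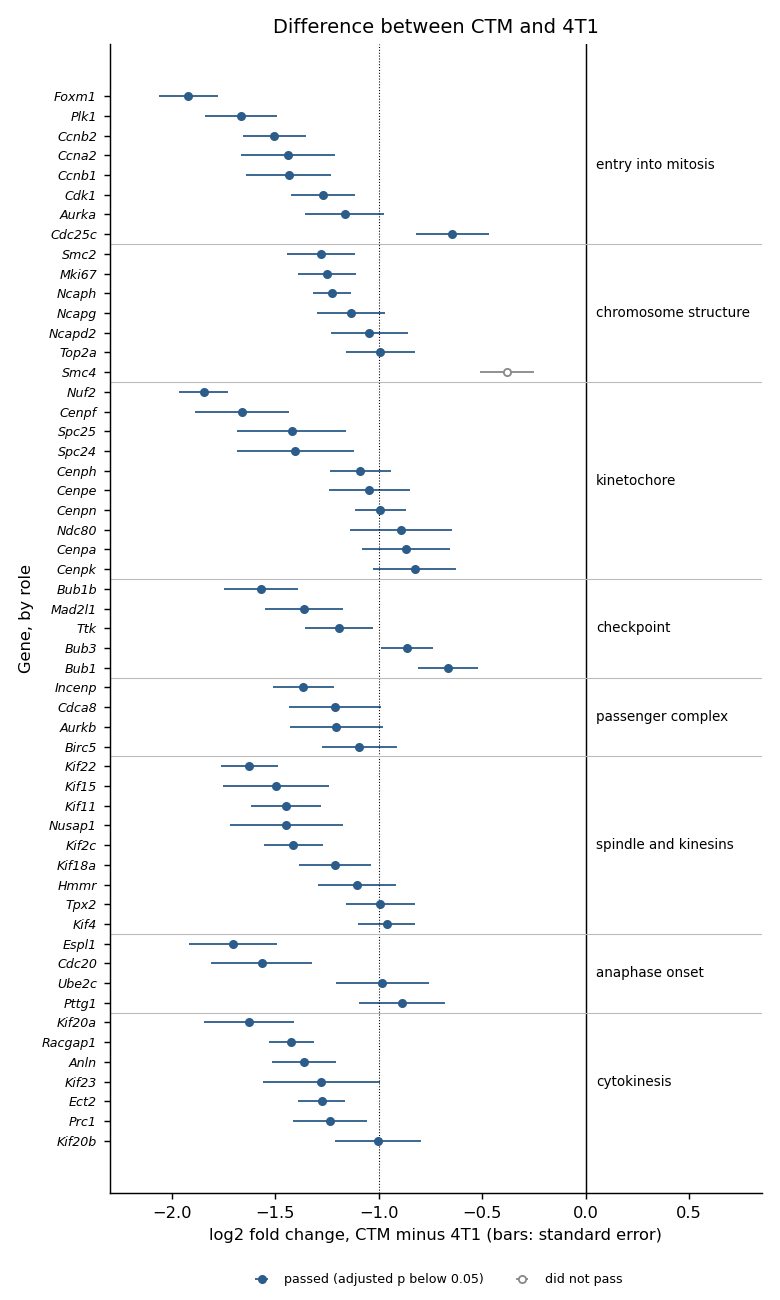
Log2 fold change of each gene, CTM minus 4T1, by role, with the standard error as bars; filled points passed at an edgeR adjusted p below 0.05. All 54 points lie below 0, from -1.92 for Foxm1 to -0.38 for Smc4, the one open point, and the dotted line marks a 2-fold fall.

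Among genes of chromosome structure 6 of 7 fell. Mki67, which coats mitotic chromosomes and is the usual stain for cycling cells, had 533, 706 and 743 CPM in 4T1 replicates 1 to 3 and 301, 261 and 271 in the CTM replicates. It fell 2.38-fold (log2 fold change -1.25 ± 0.14 SE, edgeR adjusted p = 0.00147). Top2a, the topoisomerase that untangles sister chromatids, stood at 1010.3, 1467 and 1487 CPM across the 4T1 libraries and at 752, 627 and 615 across the CTM libraries, a log2 fold change of -0.99 ± 0.17 (SE, edgeR adjusted p = 0.00573). Per kilobase of exon it was the most abundant of the 54 transcripts in both groups, at 147 ± 29.9 CPM per kb in 4T1 and 73.8 ± 8.43 in CTM (SD, n = 3 each).

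Condensin I consists of the ATPase pair Smc2 and Smc4 with Ncaph, Ncapd2 and Ncapg. Ncaph, the kleisin that bridges the pair, had 144, 158 and 163 CPM in 4T1 replicates 1 to 3 and 70.0, 62.9 and 66.6 in the CTM replicates. Its standard error was the smallest among the 54 genes (log2 fold change -1.22 ± 0.09 SE, edgeR adjusted p = 0.000561), with close values inside each group. Smc2, Ncapg and Ncapd2 passed with log2 fold changes of -1.28, -1.13 and -1.04.

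Smc4 stood at 259.9, 343 and 357 CPM across the 4T1 libraries and at 259, 240.1 and 239 across the CTM libraries. The values of replicate 1 were nearly equal in both groups, and those of replicates 2 and 3 were apart. The log2 fold change was -0.38 ± 0.13 (SE, edgeR adjusted p = 0.0702), a test that does not show equal levels: Smc4 had an adjusted p of 0.0407 in DESeq2, and of 0.0014 in edgeR without 4T1 replicate 1. Smc4 did not pass in limma voom, or in edgeR when any library other than 4T1 replicate 1 was left out. Within a library, the log2 ratio of Smc4 to Smc2 was 1.38, 1.24 and 1.25 in 4T1 and 2.27, 2.20 and 2.07 in CTM. The ratio was higher in every CTM library, by 0.89 on the log2 scale. This and the other partner ratios given were chosen after the values were seen and are descriptions. The 3 subunits listed beside condensin I that belong to condensin II, Ncapg2, Ncapd3 and Ncaph2, fell as well. Ncapd3 went from 86.5 ± 9.07 to 41.8 ± 0.815 CPM and Ncapg2 from 181 ± 40.8 to 83.2 ± 2.03 (SD, n = 3 each). Ncaph2 fell least of the 3, with a log2 fold change of -0.38 (edgeR adjusted p = 0.0432). Of its exon bases 32.5% overlap the opposite-strand genes Sco2 and Tymp.

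All 10 kinetochore genes fell, and the middle of their log2 fold changes was -1.07. Nuf2 encodes a subunit of the NDC80 complex, which grips spindle microtubules. It had 50.9, 59.7 and 62.4 CPM in 4T1 replicates 1 to 3 and 14.98, 16.5 and 16.7 in the CTM replicates, a 3.59-fold difference with the smallest adjusted p of the 54 genes (log2 fold change -1.84 ± 0.12 SE, edgeR adjusted p = 0.000366). Its promoter is the one shown above without either motif. The other subunits of the complex had smaller log2 fold changes, and the difference was not tested. Ndc80 stood at 45.03, 85.7 and 86.1 CPM across the 4T1 libraries and at 42.8, 35.8 and 38.2 across the CTM libraries, with 4T1 replicate 1 close to the CTM values (log2 fold change -0.89 ± 0.25 SE, edgeR adjusted p = 0.0344). The call of Ndc80 was lost when any library other than 4T1 replicate 1 was left out, with edgeR adjusted p of 0.122 without CTM replicate 2, and also with limma voom, at 0.0530.

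Spc24 and Spc25, the inner pair of the complex, lay between with log2 fold changes of -1.40 and -1.42. The log2 ratio of Nuf2 to Ndc80 was 0.18, -0.52 and -0.46 in the 4T1 libraries and -1.52, -1.12 and -1.20 in CTM. It was lower in every CTM library. The ratio of Spc25 to Spc24 overlapped between the groups, at -1.20 ± 0.13 in 4T1 and -1.26 ± 0.19 in CTM (SD, n = 3 each). The inner kinetochore gene Cenpn, whose product reads the centromeric nucleosome, had 26.6, 30.4 and 31.5 CPM in 4T1 replicates 1 to 3 and 13.6, 15.1 and 15.7 in the CTM replicates (log2 fold change -0.99 ± 0.12 SE, edgeR adjusted p = 0.00209). Its replicate 1 values stayed close to their groups.

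Cenpa, the centromeric histone H3 variant, passed at a log2 fold change of -0.87, and Cenph and Cenpk, of the constitutive centromere network, at -1.09 and -0.83. The large coiled-coil proteins of the outer corona, Cenpf and the kinesin Cenpe, passed at -1.66 and -1.04. The Cenpa call was lost without replicate 2 or 3 of either group, with edgeR adjusted p up to 0.0932. The Cenpk call was lost without any library other than 4T1 replicate 1, with edgeR adjusted p up to 0.0835. Cenpk had the lowest level per kilobase of the 54, at 1.38 ± 0.23 CPM per kb in 4T1 and 0.779 ± 0.105 in CTM (SD, n = 3 each).

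The spindle checkpoint holds anaphase until every kinetochore is attached, and all 5 of its listed genes fell. Bub1b encodes BUBR1, a part of the inhibitor of CDC20. It stood at 176, 258 and 254 CPM across the 4T1 libraries and at 90.6, 71.9 and 69.6 across the CTM libraries (log2 fold change -1.57 ± 0.18 SE, edgeR adjusted p = 0.00158). Mad2l1, which encodes the MAD2 part of that inhibitor, had 46.7, 73.3 and 74.1 CPM in 4T1 replicates 1 to 3 and 23.5, 25.4 and 26.7 in the CTM replicates (log2 fold change -1.36 ± 0.19 SE, edgeR adjusted p = 0.00299). In both genes 4T1 replicate 1 was the low control, and for Bub1b CTM replicate 1 lay above the other CTM libraries. Bub1, the kinetochore kinase that recruits the others, stood at 123, 142 and 148 CPM across the 4T1 libraries and at 105, 77.2 and 78.2 across the CTM libraries (log2 fold change -0.67 ± 0.15 SE, edgeR adjusted p = 0.0151). The Bub1 call was lost without 4T1 replicate 2 or 3 or without CTM replicate 2 or 3, with edgeR adjusted p up to 0.0736. The log2 ratio of Bub1b to Bub1 was 0.72 ± 0.18 in 4T1 and -0.16 ± 0.05 in CTM (SD, n = 3 each), without overlap. Ttk, the kinase MPS1 at the head of the checkpoint, and Bub3, which binds the phosphorylated kinetochore, passed at -1.19 and -0.86.

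The chromosomal passenger complex corrects faulty attachments and later marks the site of division. Its 4 genes fell by amounts between -1.09 and -1.36 on the log2 scale. Incenp, the scaffold, had 106, 139 and 142 CPM in 4T1 replicates 1 to 3 and 56.2, 44.4 and 50.01 in the CTM replicates (log2 fold change -1.36 ± 0.15 SE, edgeR adjusted p = 0.00133). Birc5, which encodes survivin, stood at 83.2, 134 and 129 CPM across the 4T1 libraries and at 56.1, 53.4 and 52.8 across the CTM libraries (log2 fold change -1.09 ± 0.18 SE, edgeR adjusted p = 0.00548). Aurkb, the catalytic kinase, had 78.3, 139.8 and 144 CPM in 4T1 replicates 1 to 3 and 56.1, 51.2 and 49.7 in the CTM replicates (log2 fold change -1.20 ± 0.23 SE, edgeR adjusted p = 0.00858). None of the 3 overlapped between groups, and 4T1 replicate 1 was the low control in each. Cdca8, the borealin gene, passed at -1.21. The log2 ratios of Aurkb to Incenp and of Birc5 to Cdca8 overlapped between the groups. The remaining partner ratios computed overlapped as well: Ncaph to Smc2, Kif23 to Racgap1, Ccnb1 to Ccnb2, Aurka to Aurkb and Tpx2 to Aurka.

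All 9 spindle and motor genes fell (median log2 fold change -1.41). Kif22, a kinesin that pushes chromosome arms outward, stood at 92.7, 121 and 126 CPM across the 4T1 libraries and at 39.6, 35.7 and 34.97 across the CTM libraries (log2 fold change -1.63 ± 0.14 SE, edgeR adjusted p = 0.000728). Kif2c, a kinesin that takes microtubules apart at the centromere, had 76.1, 100.8 and 100.02 CPM in 4T1 replicates 1 to 3 and 38.6, 33.4 and 32.0 in the CTM replicates (log2 fold change -1.41 ± 0.14 SE, edgeR adjusted p = 0.00117). Both genes had tight CTM values below every control. Nusap1, a protein that bundles spindle microtubules, stood at 86.2, 178 and 180.2 CPM across the 4T1 libraries and at 57.9, 55.0 and 50.2 across the CTM libraries. Its control values spread widely, with replicate 1 far below the others (log2 fold change -1.45 ± 0.27 SE, edgeR adjusted p = 0.00858). Kif11, the motor that pushes spindle poles apart, and Kif15, which can take its place, passed at -1.45 and -1.50, and Kif18a, which dampens chromosome movement, at -1.21. Kif4, the chromokinesin that works with PRC1, Tpx2, the activator of Aurora A, and Hmmr, a spindle pole protein, passed at -0.96, -0.99 and -1.11.

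At anaphase onset CDC20 switches on the APC/C, securin is destroyed and separase cuts cohesin, and all 4 listed genes fell. Espl1, which encodes separase, had 63.7, 105 and 112 CPM in 4T1 replicates 1 to 3 and 30.7, 27.0 and 28.4 in the CTM replicates (log2 fold change -1.70 ± 0.21 SE, edgeR adjusted p = 0.00211). Cdc20 stood at 114, 206 and 220.4 CPM across the 4T1 libraries and at 66.5, 56.2 and 59.8 across the CTM libraries (log2 fold change -1.57 ± 0.24 SE, edgeR adjusted p = 0.00441). For both genes the fall between replicates 2 and 3 of the groups was near 2 log2 units, at -1.97 and -1.88, and between replicates 1 it was -1.05 and -0.77. Pttg1, which encodes securin, had 34.1, 49.3 and 56.9 CPM in 4T1 replicates 1 to 3 and 29.8, 23.4 and 22.6 in the CTM replicates (log2 fold change -0.89 ± 0.21 SE, edgeR adjusted p = 0.0193). Ube2c, the ubiquitin-conjugating enzyme of the APC/C, passed at -0.98, and 22.8% of its exon bases overlap the opposite-strand gene Tnnc2 in the GENCODE M21 annotation. The calls of Pttg1 and Ube2c were lost without 4T1 replicate 2 or 3 or without CTM replicate 2 or 3, without CTM replicate 2 at edgeR adjusted p of 0.0821 and 0.0739.

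Cytokinesis genes fell by at least 2-fold in 7 of 7 cases. Racgap1, which with Kif23 forms the centralspindlin complex of the spindle midzone, stood at 233, 266 and 263 CPM across the 4T1 libraries and at 105, 87.6 and 90.9 across the CTM libraries (log2 fold change -1.42 ± 0.11 SE, edgeR adjusted p = 0.000561). Ect2, the exchange factor that centralspindlin brings to the cortex to switch on RHOA, had 148, 173 and 175 CPM in 4T1 replicates 1 to 3 and 76.0, 63.9 and 64.8 in the CTM replicates (log2 fold change -1.28 ± 0.11 SE, edgeR adjusted p = 0.000824). In both, replicate 1 of 4T1 stayed near the other controls. Kif23 stood at 69.7, 147 and 148 CPM across the 4T1 libraries and at 56.4, 44.4 and 49.6 across the CTM libraries, with 4T1 replicate 1 far below its group (log2 fold change -1.28 ± 0.28 SE, edgeR adjusted p = 0.0157). The Kif23 call was lost without 4T1 replicate 2 or 3 or without CTM replicate 2 or 3, with edgeR adjusted p up to 0.0715. Anln, the actin-binding scaffold of the ring, Prc1, which bundles midzone microtubules, and the midzone kinesins Kif20a and Kif20b passed at -1.36, -1.23, -1.63 and -1.004. Of the exon bases of Kif20a, 29.3% overlap the opposite-strand gene Cdc23. Whether counting used strand is not stated, so reads of such pairs may be mixed, also for Kif4 (15.1% of exon bases, with Pdzd11), Ncapg (13.4%, with Lcorl), Cdc25c (12.7%, with Gm3550), Ccna2 (12.5%, with Exosc9) and Prc1 (11.1%, with Rccd1).

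By the median of the 54 genes, the libraries numbered 1 differed less from each other than those numbered 2 and 3. Every one of the 54 genes was lowest in replicate 1 among the 4T1 libraries, where 45.5% of all tested genes were. In 42 of the 54 genes, 77.8%, replicate 1 was the highest of the CTM libraries, against 39.7% of tested genes. The median log2 difference between CTM and 4T1 was -0.77 for replicate 1 alone and -1.46 for replicates 2 and 3. The fall was smaller for replicate 1 in 52 of 54 genes, 96.3%, the exceptions being Cenph and Cenpk. Among all 2252 genes that passed in the lower direction the share was 52.3%. The labels do not say how the libraries numbered 1 differ. Some cell type markers also stood apart in them, not always with the rest of their list. Csf1r, a macrophage receptor, was at 33.2 CPM in 4T1 replicate 1 and at 0.718 and 0.613 in the other 4T1 libraries. Of the other macrophage markers some were highest there and some lowest, and Cd68 was at 23.9 CPM against 27.4 and 29.2. Cdh1, the epithelial cadherin and a marker of the tumour line, was at 115 CPM in 4T1 replicate 1 and at 28.9 and 32.0 in the others. Of the same list Krt7, Krt18, Krt19 and Itgb4 were also highest there, Itgb4 by little, and Krt8 and Epcam were not. In CTM replicate 1 the hepatocyte markers summed to 658 CPM, against 305 and 217, and Cd68 was at 334 CPM, against 151 and 145. The other macrophage markers were low in CTM and went both ways, with Csf1r highest and Adgre1 lowest in replicate 1. The part of these markers in the replicate 1 pattern was not tested.

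**Figure D4:**
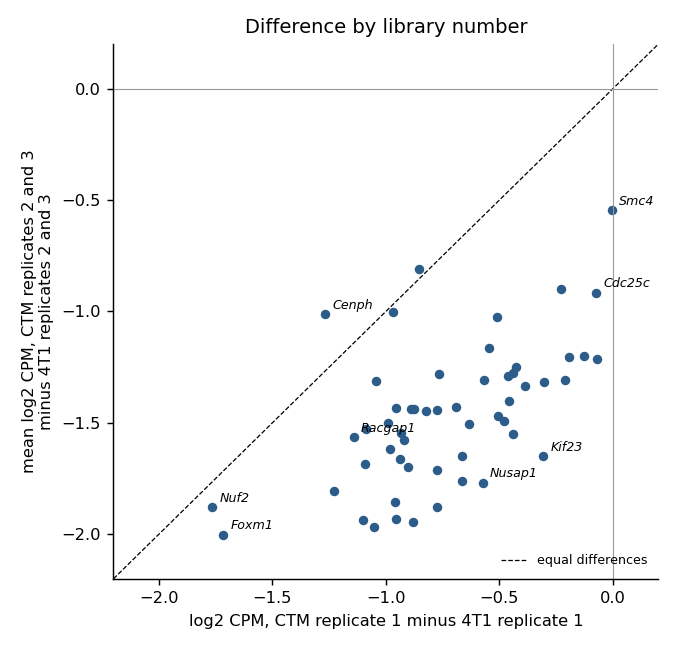
Log2 difference of each of the 54 genes between CTM and 4T1, for replicate 1 of each group (x axis) against the mean of replicates 2 and 3 (y axis). All points lie at or below 0 on both axes, and 52 lie under the dashed line of equal differences.

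With replicates 2 and 3 of each group averaged as 1 sample, 10 of the 54 genes passed in the lower direction against 1.2% of all tested genes. Without CTM replicate 2 there were 43 against 7.11%, and without both libraries numbered 1 there were 54 against 26.2%. The 10 that passed with averaging were Foxm1, Ccnb2, Plk1, Nuf2, Ncaph, Racgap1, Ect2, Kif22, Kif2c and Incenp. The 11 that did not pass without CTM replicate 2 were Bub1, Cdc25c, Cenpa, Cenpk, Kif20b, Kif23, Ndc80, Pttg1, Smc4, Spc24 and Ube2c. All 54 log2 fold changes were negative in each of these 3 fits.

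Other cell types and RNA composition were read beside these results from the shares of the library total. Epithelial markers of the tumour line summed to 2180 to 2520 CPM in 4T1 and to 1840 to 1850 in CTM, and of the 7 markers 3 passed as lower and 1 as higher (edgeR). Krt7 had 252 to 355 CPM in 4T1 and 81.9 to 92.3 in CTM, Krt19 had 9.31 to 19.4 and 34.7 to 35.1, and Epcam was below 1 CPM in each library. Hepatocyte markers summed to 787 to 829 CPM in 4T1 and to 217 to 658 in CTM, the same direction as the mitosis genes in 8 of 8 markers, with 0 of 8 passing in edgeR. Macrophage markers summed to 30.03 to 58.7 CPM in 4T1 and to 149 to 337 in CTM, Cd68 made up 145 to 334 of the CTM sums, and 2 of 6 tested markers passed as higher in CTM. General leukocyte markers summed to 315 to 439 in 4T1 and 196 to 251 in CTM, 4 of 7 tested markers passed as lower, and Ptprc was at most 1.32 CPM. Neutrophil markers summed to at most 24.4 CPM in any library, with Ly6g, Mpo, Ngp and Retnlg at 0 in all 6. Platelet markers summed to 3.54 to 5.47 CPM in 4T1 and to 7.77 to 11.3 in CTM, with 2 of 4 tested passing as higher and Gp6 at 0. B cell, T cell and erythroid markers reached at most 6.67, 0.168 and 9.19 CPM, with Cd3d, Cd3g and Cd2 at 0. The mitochondrially encoded share was 1.86% to 2.27% in 4T1 and 1.11% to 1.35% in CTM. The part of these differences between libraries in the fall of the mitosis genes was not tested.

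Of a further 108 mitosis genes, listed by function beside the 54, 106 were tested. Of these 69 fell, 36 did not pass and 1 rose, with a median log2 fold change of -0.79 (edgeR, 13.7% of all tested genes falling). The set of spindle genes fell in 15 of 17 cases, and the smallest p belonged to Tacc3, a spindle stabiliser at 122 ± 21.3 CPM in 4T1 and 47.5 ± 0.0608 in CTM, and Gtse1, at 34.0 ± 5.55 and 12.4 ± 0.504 (SD, n = 3 each). Of 13 tested regulators 10 fell, among them the kinase gene Pbk, at 104 ± 24.6 and 36.2 ± 1.83 CPM, and Cdca3, at 56.2 ± 5.31 and 22.1 ± 3.68 (SD, n = 3 each). The further kinetochore genes fell in 19 of 27 cases, with Cenpi, of the inner kinetochore, at 33.1 ± 4.75 CPM in 4T1 and 15.1 ± 1.32 in CTM (SD, n = 3 each).

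The APC/C and cohesin are large complexes with subunits that cells also use outside mitosis. Of 15 APC/C genes 4 fell, namely the subunit genes Anapc5 and Cdc27, the late activator Fzr1 and the inhibitor Fbxo5, and the median log2 fold change was -0.33. Anapc5 fell from 413 ± 33.2 to 202 ± 35.7 CPM, and Fzr1 from 98.1 ± 11.6 to 57.7 ± 5.76 (SD, n = 3 each). Of 13 cohesin genes 7 fell, and the 4 with at least a 2-fold fall were Cdca5 (sororin), Sgo2a and Sgo1 (shugoshins) and Esco2 (the acetyltransferase), which protect or establish cohesion. Cdca5 was at 26.2 ± 4.33 CPM in 4T1 and 11.1 ± 0.751 in CTM, and Sgo2a at 104 ± 15.8 and 40.7 ± 7.88 (SD, n = 3 each). The ring subunits Rad21 and Smc1a fell less, with log2 fold changes of -0.49 and -0.46, and Smc3 did not pass.

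Among the transcription factors 8 of 12 fell. E2f7, a repressor of the E2F family, was at 41.9 ± 9.48 CPM in 4T1 and 12.5 ± 0.521 in CTM, and Tfdp1, the E2F partner, at 163 ± 22.2 and 73.7 ± 5.86 (SD, n = 3 each). Mybl2, which encodes the B-MYB partner of MuvB, fell with a log2 fold change of -1.17, and Rbbp4, a MuvB core gene, with one of -0.44. The MuvB core genes Lin9, Lin37 and Lin52 did not pass, at -0.26, 0.43 and 0.36, and Lin54 was not tested. Lin37 had an edgeR adjusted p of 0.0526 and passed as higher with DESeq2. Of 6 further cytokinesis genes Cit, Cep55 and Depdc1b fell, Cep55 from 68.0 ± 10.8 to 33.4 ± 6.72 CPM and Depdc1b from 26.2 ± 6.95 to 9.35 ± 1.25 (SD, n = 3 each). Chmp4b, the ESCRT-III subunit of the last cut between daughter cells and of many other membranes, alone passed as higher in the main edgeR fit. It had 117, 139 and 136 CPM in 4T1 replicates 1 to 3 and 197, 162 and 161 in the CTM replicates (log2 fold change 0.41 ± 0.12 SE, edgeR adjusted p = 0.0400). The call of Chmp4b was lost with library totals alone, at 0.0755, and without any single library other than 4T1 replicate 1.

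**Figure D5:**
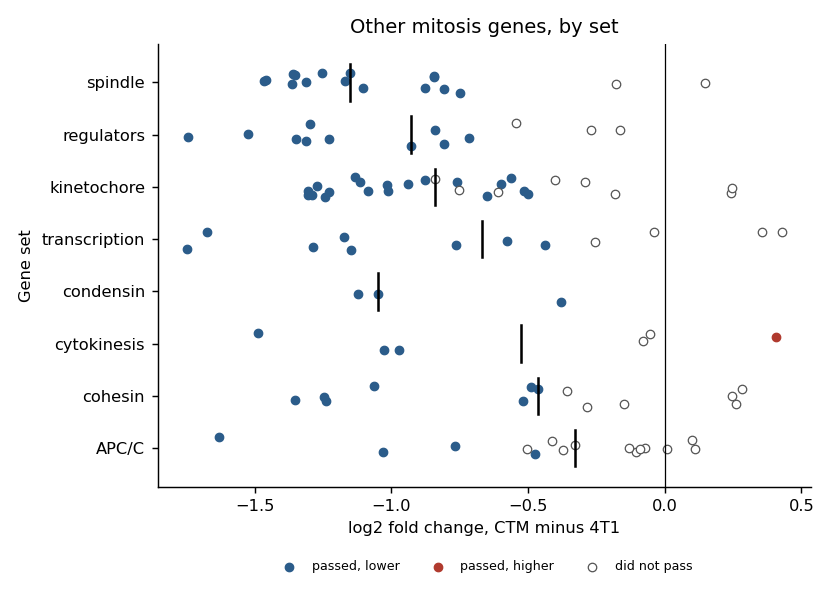
Log2 fold change, CTM minus 4T1, of 106 further mitosis genes by functional set, with the median of each set as a black bar; filled points passed at an edgeR adjusted p below 0.05. Spindle genes have a median of -1.15 and APC/C genes a median of -0.33, and the single filled point above 0 is Chmp4b.

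The 28 listed genes of DNA replication, the S phase counterpart of this group, all passed as lower (edgeR), against 13.7% of all tested genes. Their median log2 fold change was -1.302 against -1.24 for the mitosis genes. The difference between these medians was not tested. The size of the fall was set beside the promoter letters as a description. The 34 genes with a CHR match had a median log2 fold change of -1.26 and the 11 without had -1.21, with ranges from -1.70 to -0.67 and from -1.84 to -0.83. For 7 of the 11, Birc5, Kif18a, Mad2l1, Ncaph, Nuf2, Nusap1 and Pttg1, neither motif was found in the window, and all 7 fell. Other starts of these genes were not examined.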

How the data were processed

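Per the labels' protocols, 3 CTM and 3 4T1 libraries were made with a SMART-Seq kit for low input. Aligners HISAT2 2.0.4 and Bowtie 0.12.2, the package edgeR and build mm8 appear in the submitters' processing notes, with no role stated. How counts were made, and with which annotation, no source used here states. Deposited values are estimated counts per Ensembl gene, as whole numbers, summing to 69178212 to 71595766 per library. Low counts pile up at multiples of 4 (956 genes at 4 but 391 at 3 in 4T1 replicate 1), so counting error may be larger than the totals imply. The planned test assumed plain counts and was kept.

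Symbols were matched for 52073 identifiers. edgeR 4.0.16 (R 4.3.3) was fitted to all 6 libraries with filterByExpr, TMM factors from 0.952 to 1.04 and the quasi-likelihood F test, two-sided, with Benjamini-Hochberg adjustment over 16414 genes at 0.05. The standard error is the log2 fold change divided by the root of its F statistic. SDs are over 3 normalised CPM values. Levels per kilobase use exon lengths of GENCODE M21, which may not be the authors' annotation. Kif22-ps and Kif4-ps had no counts, and Ccnb1-ps and Ccnb2-ps were at or below 1.34 CPM. The procedure was tested on simulated data.

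The genes, lists and tests were chosen with earlier results of these data known. Values in every library are given for the 2 smallest and the largest p of each role set and for 6 fixed genes (Mki67, Top2a, Ccnb1, Cdk1, Foxm1, Cdc20); companion genes are the 2 smallest p per set and any that rose, except for an item that is not reported here. Partner ratios were chosen after the values were seen. Alternatives were other scalings, DESeq2 1.42.0, limma voom 3.58.1, other filters, a replicate block, each library left out, both libraries numbered 1 left out or given a term, replicates 2 and 3 averaged, counts divided by 4, and a 2-fold minimum.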

Additional observations from a re-analysis of the deposited data

How the results depend on the processing

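All 54 mitosis genes kept a negative log2 fold change in every refit listed here. Leaving out each library in turn gave 43 to 54 mitosis genes lower, 42 to 84 companion genes lower and 0 to 4 companion genes higher, with 1208 to 3326 of all tested genes lower and 1334 to 3323 higher. The lowest counts came without CTM replicate 2; without CTM replicate 3 there were 1292 lower, without 4T1 replicate 2 there were 1415 lower and 1496 higher, and without 4T1 replicate 3 there were 1437 lower. With replicates 2 and 3 averaged the counts were 200 genes lower, 276 higher, 10 mitosis genes lower, 4 companions lower and 0 higher. Without both libraries numbered 1 they were 4340 lower, 4239 higher and 8 companions higher. A 2-fold minimum, which only narrows the calls, left 832 lower, 738 higher, 42 companions lower and 0 higher. The single companion higher became 0 with library totals alone, without a filter and with the replicate block, 2 with DESeq2 and with limma voom, 3 with counts divided by 4, and 4 with the 5 CPM filter, without 4T1 replicate 1 or with a term for the libraries numbered 1. The causes were not tested. Library totals alone moved the median of all genes to a log2 fold change of -0.11.

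The labels give no pairing or batch for same-numbered libraries of the groups. Correlations of their deviations were 0.0507, 0.00384 and 0.00459, and replicate 1 alone matched its own number best. A shared batch was not tested. With the replicate block 48 mitosis genes were lower, the calls of Cdc25c, Cenpa, Ndc80, Pttg1 and Ube2c being lost (edgeR adjusted p from 0.0540 to 0.0842). In that fit 62 companion genes were lower, and 2065 of all tested genes were lower and 2232 higher. The lowest of the mitosis genes, Cenpk, had 3.46 CPM or more in each library. The part of depth in the calls was not tested.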
